A study of Mus musculus with 35 samples.

Results

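The vomeronasal type 2 receptor genes of the mouse are the protein-coding genes named Vmn2r and a number on the autosomes of GRCm38, and 122 genes met that rule. A position was used for 121 of them, out of 20560 protein-coding genes placed on 19 autosomes. Vmn2r122 has coordinates on chromosome 4 in the RefSeq table that lie within the first 3 Mb, before the chromosome sequence begins, and no promoter entry, so it was not placed. The members were chosen by symbol and position and by no measured value, while the family itself was picked with results of these data known. Members up to 1 Mb apart were joined, which gave 12 clusters with 116 genes, and 5 genes stood alone. Clusters, and not single genes, are the units counted.

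Histone H3 trimethylated at lysine 4, lysine 27 or lysine 36 was mapped in female mouse germ cells by CATCH-seq, a form of native chromatin immunoprecipitation for few cells that uses micrococcal nuclease and carrier DNA. The cultured stages were the oogonia-like cells c7 and the oocyte-like cells c13 and c34, all derived from H18, 1 mouse embryonic stem cell line with the Prdm1-mVenus and Dppa3-ECFP reporters and genotype WT. The stages from animals were E18.5 oocytes, from fetuses with the same reporters and genotype WT, and germinal vesicle (GV) oocytes, the full-grown stage, from BDF1 mice with genotype WT. The deposited data were 13 peak lists, 1 for each mark at c13, c34, E18.5 and GV and 1 for H3K27me3 at c7, from 35 libraries of which 9 were input. H3K4me3 and H3K27me3 in GV oocytes had 1 library each, H3K4me3 in c13 had 4, and every other stage and mark had 2. With 1 list for each stage and mark, no replicate spread, read depth or p-value could be given, and every difference between stages is a description of these lists. Strain and stage cannot be told apart in any comparison with GV oocytes. A share of cells that carry a mark and an amount of mark in each cell cannot be told apart either.

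The V2R proteins are G protein-coupled receptors with a large extracellular ligand-binding domain, and they detect peptide and protein pheromones in the basal neurons of the vomeronasal organ. Each such neuron transcribes one or a few of these genes, and the family lies in tandem arrays that differ in gene number between rodents. H3K4me3 lies at promoters, H3K27me3 is laid down by Polycomb repressive complex 2, and H3K36me3 is laid down over transcribed gene bodies. In growing oocytes H3K36me3 guides DNA methylation, and H3K4me3 also spreads into broad domains away from promoters. The oocyte is not a tissue in which these receptors are known to act.

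Promoters of the family were short of CpG dinucleotides, and several were near copies of each other. RefSeq promoters of 300 bases were found for 115 members, with 116 starts, and they had a median of 1 CpG, against 14 in 20085 promoters of 16457 autosomal protein-coding genes. Up to 4 CpG were counted in 115 of the 116 (99.1%), against 27.5% of all promoters, and the median GC content was 38%, against 57%. The exception was Vmn2r29, the first gene of the largest cluster, whose outer start had 23 CpG and 62.3% GC and whose inner start had no CpG. A low CpG count was not particular to the family. Promoters of the type 1 vomeronasal receptor genes (Vmn1r) and of the olfactory receptor genes (Olfr) also had a median of 1 CpG. The letters TATAAA, searched on both strands of the 250 bases before the start, were in 25 of 116 Vmn2r promoters (21.6%), against 11.7% of all promoters. No allowance was made for the lower GC content of the family or for promoters that are copies, so these shares do not show an excess of TATA boxes.

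The sequences that follow are the 250 bases before a start, on the gene's strand, from RefSeq on GRCm38.p6. The first is the outer start of Vmn2r29 (chr7:7278290-7278539, minus strand), the promoter with the most CpG in the family, with its 17 CpG in capitals. The second is the inner start of Vmn2r29 (chr7:7247329-7247578, minus strand) and the third its neighbour Vmn2r30 (chr7:7337494-7337743, minus strand), shown for their likeness, with the 16 bases that differ in capitals.
Vmn2r29, outer start: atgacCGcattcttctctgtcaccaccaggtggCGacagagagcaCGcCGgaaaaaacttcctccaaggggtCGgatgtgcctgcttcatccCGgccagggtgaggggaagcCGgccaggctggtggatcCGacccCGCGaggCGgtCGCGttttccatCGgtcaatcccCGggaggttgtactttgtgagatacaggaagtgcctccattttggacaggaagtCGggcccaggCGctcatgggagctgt
Vmn2r29, inner start: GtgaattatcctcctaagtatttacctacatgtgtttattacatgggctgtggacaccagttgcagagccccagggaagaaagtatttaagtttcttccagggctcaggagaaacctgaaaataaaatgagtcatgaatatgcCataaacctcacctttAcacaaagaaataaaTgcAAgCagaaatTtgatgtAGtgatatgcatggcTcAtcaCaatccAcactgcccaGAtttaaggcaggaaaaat
Vmn2r30: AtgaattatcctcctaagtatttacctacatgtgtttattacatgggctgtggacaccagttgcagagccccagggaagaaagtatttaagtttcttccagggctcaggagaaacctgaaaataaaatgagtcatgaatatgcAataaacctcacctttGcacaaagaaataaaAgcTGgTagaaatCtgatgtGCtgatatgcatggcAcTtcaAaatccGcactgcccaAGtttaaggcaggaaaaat

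4 pairs of members had identical promoters over 300 bases: Vmn2r62 with Vmn2r126, Vmn2r31 with Vmn2r33, Vmn2r32 with Vmn2r49, and Vmn2r34 with Vmn2r45. The first pair is shown because its copies lie at chr7:42793497-42793746 on the minus strand and chr7:43018548-43018797 on the plus strand. These bases are printed in lower case throughout.
Vmn2r62: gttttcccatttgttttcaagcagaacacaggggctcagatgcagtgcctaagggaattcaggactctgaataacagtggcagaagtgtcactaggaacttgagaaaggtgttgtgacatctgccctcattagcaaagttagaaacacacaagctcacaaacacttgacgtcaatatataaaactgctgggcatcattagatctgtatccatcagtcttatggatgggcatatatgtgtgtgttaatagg
Vmn2r126: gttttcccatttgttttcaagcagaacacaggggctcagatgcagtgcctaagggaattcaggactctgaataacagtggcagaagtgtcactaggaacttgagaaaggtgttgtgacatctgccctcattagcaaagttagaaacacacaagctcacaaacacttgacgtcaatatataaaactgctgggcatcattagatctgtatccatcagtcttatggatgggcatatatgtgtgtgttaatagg

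Vmn2r82 (chr10:79356341-79356590, plus strand) is shown as a promoter with an H3K4me3 peak within 1 kb of its start in the c34 and GV lists. In c34 that peak covered 0% of the gene body and did not reach the printed bases. Vmn2r116 (chr17:23384553-23384802, plus strand), the receptor of the male pheromone ESP1, is shown as a promoter without H3K4me3 in any list. Capitals mark the 3 CpG of Vmn2r82, and Vmn2r116 had none.
Vmn2r82: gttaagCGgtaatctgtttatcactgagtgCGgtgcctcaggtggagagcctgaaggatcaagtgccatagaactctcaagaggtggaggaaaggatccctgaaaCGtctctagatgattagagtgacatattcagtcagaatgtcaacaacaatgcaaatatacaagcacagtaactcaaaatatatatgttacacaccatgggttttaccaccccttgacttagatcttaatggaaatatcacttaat
Vmn2r116: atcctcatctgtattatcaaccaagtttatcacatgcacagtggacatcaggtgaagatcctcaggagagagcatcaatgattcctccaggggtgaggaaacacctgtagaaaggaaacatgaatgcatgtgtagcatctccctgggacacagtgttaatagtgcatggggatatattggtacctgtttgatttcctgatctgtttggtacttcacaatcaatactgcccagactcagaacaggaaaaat

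The 12 clusters were called by chromosome, with letters from low to high coordinate where a chromosome had several. The chr3 cluster, chr3:64078172-64719602, ran over 641 kb with the 7 genes Vmn2r1 to Vmn2r7. These are the family-C receptors, which are transcribed together with other V2Rs in the same neurons. The chr5 cluster, chr5:108797193-109453387, held 10 genes, Vmn2r8 to Vmn2r17, in 656 kb. The chr6 cluster, chr6:123308333-124231784, held 9 genes, Vmn2r19 to Vmn2r27, in 923 kb. It includes Vmn2r26, also known as V2r1b, a receptor for peptides that bind major histocompatibility complex class I.

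Chromosome 7 had 4 clusters. The chr7a cluster, chr7:7212996-10176286, was the longest, with 24 genes from Vmn2r29 to Vmn2r52 in 2963 kb and 51 annotated pseudogenes. The chr7b cluster, chr7:12581470-12733320, had 4 genes, Vmn2r53 to Vmn2r56. The chr7c cluster, chr7:41399732-43048106, had 8 genes, Vmn2r57 to Vmn2r126, among 9 other protein-coding genes. The chr7d cluster, chr7:84940169-87037968, had 15 genes, Vmn2r65 to Vmn2r79, and 16 others.

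On chromosome 10, chr10a (chr10:79148816-79492154) held Vmn2r80 to Vmn2r83 and chr10b (chr10:130385800-130497379) held Vmn2r84 to Vmn2r87. The chr14 cluster, chr14:51411001-51461293, was the shortest, with Vmn2r88, a receptor for haemoglobin, and Vmn2r89 in 50.3 kb. On chromosome 17, chr17a (chr17:17703941-20596259) had 22 genes, Vmn2r90 to Vmn2r110, and chr17b (chr17:22547941-23479597) had 7, Vmn2r111 to Vmn2r117. The chr17b cluster includes Vmn2r115 and Vmn2r116, receptors of the exocrine peptides ESP22 and ESP1. The genes that stood alone were Vmn2r129 on chromosome 4, Vmn2r18 on chromosome 5, Vmn2r28 on chromosome 7, and Vmn2r118 and Vmn2r120 on chromosome 17.

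H3K4me3 was sparse over the clusters at every stage. No cluster had 50% or more of its span under H3K4me3 in the c13, c34, E18.5 or GV list, where 4.50%, 0.146%, 0.0209% and 7.28% of 4796 autosomal tiles of 500 kb did. The median cluster was covered over 0.707% in c13, 1.94% in c34, 0.516% in E18.5 oocytes and 7.48% in GV oocytes. Summed over the clusters, H3K4me3 peaks took 0.980% of the length in c13, 1.69% in c34, 0.619% in E18.5 oocytes and 7.90% in GV oocytes, against 10.44%, 10.53%, 5.48% and 25.5% of the autosomes. Clusters vary from 50.3 to 2963 kb, so the tiles are a yardstick and not a match in size.

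The GV list had the most H3K4me3 over the family. In GV oocytes chr10b was covered over 23.3%, chr17b over 21.7%, chr10a over 19.6% and chr17a over 14.6%, while chr5, chr6 and chr7a lay at or below 1.52%. The 31 H3K4me3 peaks of the GV list in chr17a were up to 34 kb wide, against 5 peaks of up to 4.00 kb at E18.5. Between GV and E18.5, H3K4me3 coverage was higher in GV by at least 20 percentage points in 2 clusters, chr10b and chr17b, and lower in none, where 46.2% of tiles were higher and 0% lower.

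In c34 against GV, no cluster differed by 20 points in H3K4me3, where 31.3% of tiles did. The closest to that limit was chr10b, with 6.27% in c34 and 23.3% in GV oocytes, followed by chr17b, with 5.58% in c34 and 21.7% in GV oocytes. The chr14 cluster had more H3K4me3 in c34, 15.9%, than in GV oocytes, 9.94%. In c13 against E18.5, chr10b was higher in c13 with 27.2%, against 2.69% at E18.5, and no cluster was lower, where 8.42% of tiles were higher and 0% lower. The same cluster was the only one past 20 points between c34 and c13, with 6.27% in c34 and 27.2% in c13, where 0.709% of tiles were higher in c34 and 6.07% lower.

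**Figure D1:**
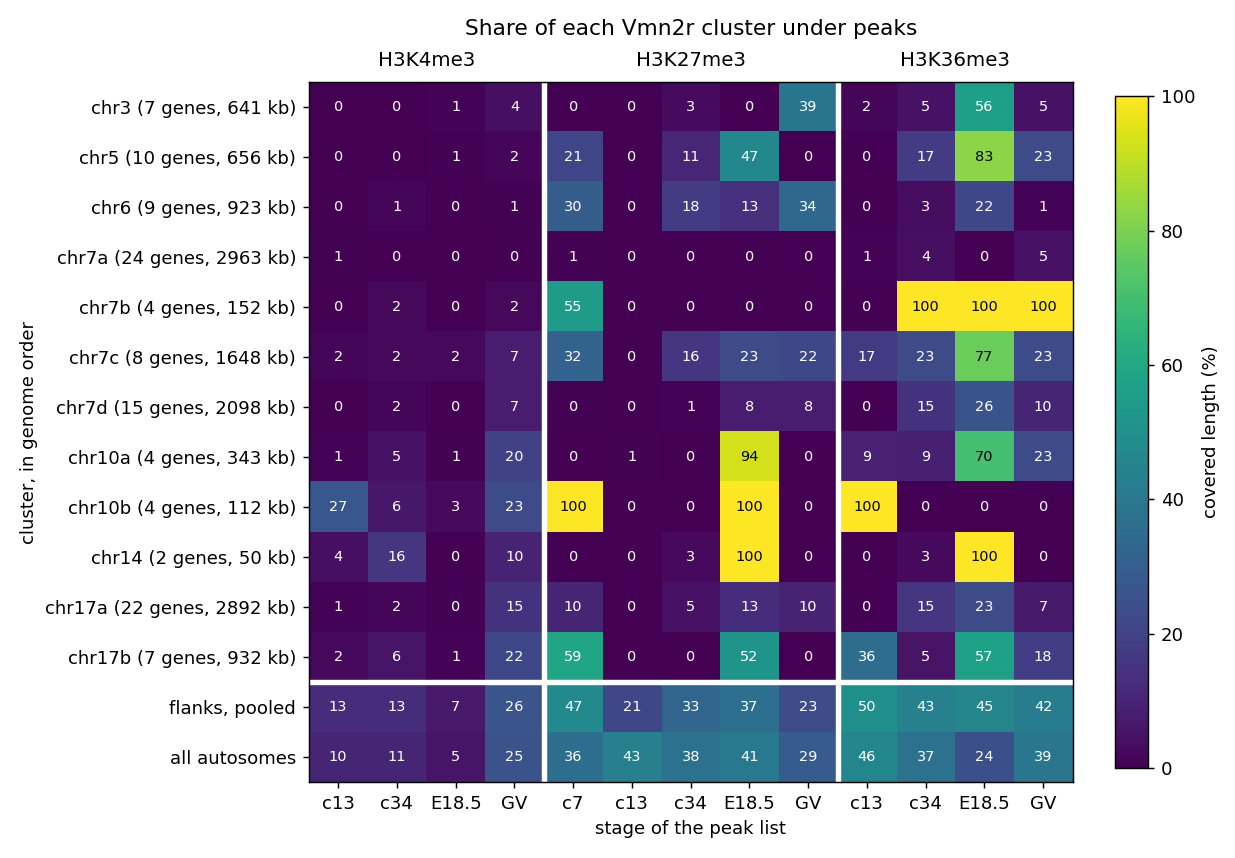
Share of each of the 12 Vmn2r clusters under peaks, in percent of the span, by mark and stage, with the pooled flanks of 1 Mb and the 19 autosomes in the lowest rows. The E18.5 columns of H3K27me3 and H3K36me3 hold most of the high values, and the chr7a row stays at or below 5.06% in every list.

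H3K27me3 covered some clusters broadly in the c7 and E18.5 lists and was nearly absent from the family in the c13 list. In c7, 3 of 12 clusters had 50% or more of their span under H3K27me3, where 35.0% of tiles did: chr10b with 100%, chr17b with 59.2% and chr7b with 54.9%. In c13 no cluster did, where 46.5% of tiles did, and 11 of 12 clusters had no H3K27me3 peak at all, where 32.7% of tiles had none. The c13 list put H3K27me3 over 0.0161% of the summed clusters, against 43.4% of the autosomes, the highest share of the 5 H3K27me3 lists.

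The single H3K27me3 overlap with a cluster in c13 lay at the end of chr10a, where Vmn2r83 was covered over 9.29% of its body by the edge of a peak of 760 kb. Clusters without an H3K27me3 peak numbered 3 in c7, 5 in c34 and 3 at E18.5, where 24.7%, 20.8% and 23.9% of tiles had none. In c34 no cluster reached 50%, where 37.2% of tiles did, and chr6 was highest with 17.7%, followed by chr7c with 15.8%. At E18.5, 4 clusters reached 50%, where 40.7% of tiles did: chr10b and chr14 with 100%, chr10a with 93.5% and chr17b with 51.7%. The chr5 cluster lay just under the limit at E18.5, with 46.7%. In GV oocytes no cluster did, where 26.1% of tiles did, and 7 clusters had no H3K27me3 peak, where 30.9% of tiles had none. The values just above 50% were those of chr17b at E18.5 and chr7b in c7.

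Single H3K27me3 peaks ran across whole clusters. One of 430 kb at E18.5 and one of 570 kb in c7 covered Vmn2r84 to Vmn2r87 in chr10b and extended beyond them. A peak of 370 kb at E18.5 covered 3 of the 4 members of chr10a, Vmn2r80, Vmn2r81 and Vmn2r82, over 100% of their bodies. A peak of 220 kb at E18.5 covered both members of chr14, Vmn2r88 and Vmn2r89. Of the 12 clusters, chr10a and chr14 were the ones with most of their span under H3K27me3 at E18.5 and at no other stage, 93.5% and 97.4%.

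In GV oocytes H3K27me3 lay in 5 clusters, of which 4 also had it at E18.5. The chr3 cluster had 39.0% in GV oocytes and 0% at E18.5, with Vmn2r4 fully covered and Vmn2r6 over 55.3% in GV oocytes and neither covered at E18.5. The chr6 cluster had 33.9% in GV oocytes and 13.4% at E18.5, and Vmn2r19 and Vmn2r23 were covered over 100% in GV oocytes. The other three clusters had 21.8% in GV and 23.1% in E18.5 in chr7c, 8.10% in both in chr7d, and 290 kb of the span in GV and 376 kb in E18.5 in chr17a. The chr3 and chr6 clusters were higher in GV by at least 20 points and 5 were lower, where 19.0% of tiles were higher and 39.3% lower. The 5 were chr5, chr10a, chr10b, chr14 and chr17b, and each of them was at 0% in GV oocytes.

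In c34 against GV, 1 cluster differed by 20 points in H3K27me3: chr3, with 3.12% in c34 and 39.0% in GV oocytes, where 40.4% of tiles differed. In c13 against E18.5, 6 clusters were lower in c13 and none higher, where 29.7% of tiles were higher and 28.0% lower. They were chr5, chr7c, chr10a, chr10b, chr14 and chr17b, and in c13 they lay between 0% and 0.627%. In c13 against c7, 6 clusters were lower in c13, namely chr5, chr6, chr7b, chr7c, chr10b and chr17b, where 30.4% of tiles were higher and 19.7% lower. Without H3K27me3 peaks of 1 Mb or more, 6 clusters were lower in c13 than at E18.5 and 5 lower than in c7. None could be higher in c13, as no cluster was covered over more than 0.627% there before the peaks were removed. Such peaks made up 37.0% of the H3K27me3 length in c13, 14.5% at E18.5 and 11.2% in c7. The tile shares for that setting are not given here. Between c34 and c13 no cluster differed by 20 points, where 17.5% of tiles were higher in c34 and 29.1% lower.

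H3K36me3 covered the family most broadly at E18.5. In that list 7 of 12 clusters had 50% or more of their span under H3K36me3, where 22.9% of tiles did. They were chr7b and chr14 with 100%, chr5 with 82.8%, chr7c with 77.0%, chr10a with 70.2%, chr17b with 57.1% and chr3 with 56.4%. The median cluster was covered over 56.8% at E18.5, against 0.506% in c13, 7.05% in c34 and 8.76% in GV oocytes. The summed clusters were covered over 34.1% at E18.5, against 24.4% of the autosomes, and in the other 3 H3K36me3 lists the clusters lay below the autosomes. The E18.5 list was also unlike the others in its share of genes. Protein-coding genes made up 40.9% of the autosomes and held 39.1% of the H3K36me3 length at E18.5. They held 53.7% of it in c13, 63.9% in c34 and 62.3% in GV oocytes.

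One cluster reached 50% in each of the other H3K36me3 lists. In c13 it was chr10b with 100%, where 46.4% of tiles reached 50%. In c34 it was chr7b with 100%, where 36.6% of tiles did, and in GV oocytes it was again chr7b with 100%, where 38.9% of tiles did. A peak of 540 kb in c34, of 1110 kb at E18.5 and of 600 kb in GV oocytes contained all of chr7b, with Vmn2r53 to Vmn2r56, and no H3K36me3 peak touched that cluster in c13. Clusters without an H3K36me3 peak were 6 in c13, 1 in c34, 2 in E18.5 and 2 in GV, where 42.4%, 17.2%, 52.9% and 16.3% of tiles had none.

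Of the span under H3K36me3 at E18.5, much was under the mark in no other list. The span covered at E18.5 alone was 97.4% in chr14, 54.9% in chr5, 51.4% in chr3, 44.0% in chr10a, 33.97% in chr7c and 27.9% in chr17b. In chr3 one peak of 1060 kb, chr3:63370001-64430000, covered Vmn2r1 to Vmn2r4 in full and left Vmn2r5, Vmn2r6 and Vmn2r7 outside. In chr5 the bodies of Vmn2r10 to Vmn2r16 were fully covered at E18.5 and those of Vmn2r8 and Vmn2r9 not at all.

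**Figure D2:**
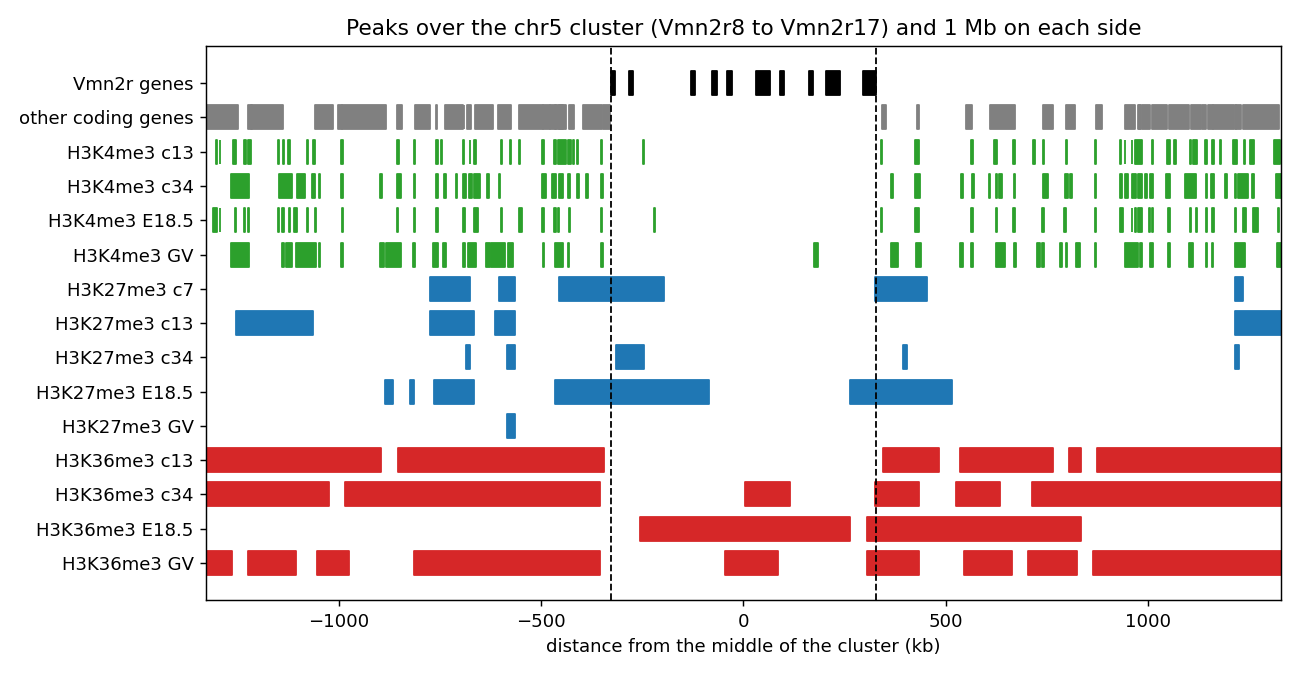
Map of the chr5 cluster and 1 Mb on each side, with distance from its middle in kb, the 10 Vmn2r genes in black, other protein-coding genes in grey and the peaks of all 13 lists as bars. At E18.5 H3K27me3 bars lie over both ends of the cluster and an H3K36me3 bar over its middle, and the dense H3K4me3 bars outside stop at the dashed cluster edges.

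GV oocytes against E18.5 oocytes had less H3K36me3 by at least 20 points in 7 clusters and more in none, where 21.9% of tiles were lower in GV and 43.3% higher. The 7 were chr3, chr5, chr6, chr7c, chr10a, chr14 and chr17b, and chr14 had 0% in GV oocytes and 100% at E18.5. In c13 against E18.5, 10 clusters were lower in c13 and 1, chr10b, was higher, where 22.2% of tiles were lower and 37.7% higher. The remaining cluster was chr7a, with 1.01% in c13 and 0% at E18.5. Of the whole lists, 80.6% of the H3K36me3 length in c13 and 36.5% of that at E18.5 came from peaks at least 1 Mb wide, against 4.93% in c34 and 5.05% in GV oocytes.

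Without peaks of 1 Mb or more, 5 clusters had 50% or more of their span under H3K36me3 at E18.5, where 13.3% of tiles did. The clusters no longer past that limit were chr7b, with 0%, and chr3, with 1.56%. GV oocytes then had less H3K36me3 than E18.5 oocytes in 6 clusters and more in 1, chr7b, where 14.6% of tiles were lower in GV and 49.1% higher. In c13 against E18.5, 8 clusters were then lower in c13 and chr10b was higher, where 21.9% of tiles were lower and 7.71% higher.

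In c34 against GV no cluster differed by 20 points in H3K36me3, where 18.2% of tiles did. The chr5 cluster had 17.3% in c34 and 23.4% in GV oocytes, chr7c had 23.1% in both, and chr10a had 8.74% in c34 and 23.3% in GV oocytes. In c34 against c13, chr7b was higher in c34, and chr10b and chr17b were lower, where 19.8% of tiles were higher and 35.2% lower. The chr17b cluster had 5.37% in c34 and 35.6% in c13.

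At E18.5 H3K27me3 and H3K36me3 lay over the same DNA in several clusters. Both marks covered 100% of chr14, 70.2% of chr10a, 34.6% of chr17b, 29.5% of chr5, 18.8% of chr7c, 6.67% of chr7d and 3.32% of chr17a. Over the summed clusters the pair without H3K4me3 took 9.91% at E18.5, against 18.4% of the flanks and 10.8% of the autosomes. The bodies of 11 of the 121 members were fully covered by both marks at E18.5, where 5.85% of all protein-coding genes were: Vmn2r129, Vmn2r10, Vmn2r63, Vmn2r78, Vmn2r81, Vmn2r82, Vmn2r88, Vmn2r89, Vmn2r90, Vmn2r115 and Vmn2r116. In c13 the pair took 0.0161% of the summed clusters, against 12.8% of the flanks and 25.4% of the autosomes. Peaks of 2 marks over 1 interval do not show that both lie on 1 nucleosome or in 1 cell.

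DNA under none of the 3 marks made up most of the family. It was 93.6% of the summed clusters in c13, 81.8% in c34, 58.6% in E18.5 oocytes and 71.3% in GV oocytes, against 42.6%, 30.9%, 43.3% and 21.0% of the autosomes. The lowest share of unmarked cluster DNA among these 4 stages was therefore at E18.5, whereas for the autosomes it was in GV oocytes. In c13 the chr7b and chr7d clusters had no peak of any mark.

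The marks changed at the borders of the clusters in most lists. Flanks were taken as 1 Mb on each side without other members. H3K36me3 covered 12.4% of the summed clusters in c34 against 43.4% of the flanks, and 11.6% in GV oocytes against 42.0% of the flanks, and 11 and 10 of the 12 clusters were below their own flanks. At E18.5 the summed clusters had 34.1% and the flanks 45.4%, with 4 clusters below their flanks. The chr7c cluster had 77.0% at E18.5 and its flanks 0%, and chr10a had 70.2% and its flanks 10.9%. The chr3 cluster had 56.4% and its flanks 94.5%, and chr7a had 0% and its flanks 69.7%.

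H3K27me3 was bounded in a similar manner in c13 but less so at E18.5. The summed clusters had 14.9% in c7, 0.0161% in c13, 5.03% in c34, 17.3% in E18.5 oocytes and 10.32% in GV oocytes, against 47.3%, 21.2%, 32.6%, 36.5% and 22.9% of the flanks. At E18.5 chr10b, chr14, chr10a, chr17b and chr5 had more H3K27me3 than their flanks, with 60.6%, 56.5%, 51.6%, 37.9% and 22.7% in the flanks. In c13 the flanks of chr10a had 72.6% and those of chr17b 39.5%, beside 0.627% and 0% in the clusters. The c13 flanks of chr7b, chr7c and chr17a had 0% and those of chr7a 1.00%, so little or no border could be seen there. The summed flanks in c13 were themselves below the 43.4% of the autosomes. H3K4me3 was below the flanks in 11 clusters in c13, 10 in c34, 11 in E18.5 oocytes and 11 in GV oocytes.

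Means were also taken by distance from the cluster edges. Fewer edges entered the inside means than the outside means, so the inside and outside values do not rest on the same clusters. The shortest clusters, chr14, chr10b and chr7b, were covered over 100% in some H3K27me3 or H3K36me3 lists. In the first 100 kb inside the edges, H3K36me3 averaged 11.6% in c34 over 18 edges, and in the first 100 kb outside 45.1% over 23 edges. In GV oocytes the means were 20.2% inside and 49.2% outside, in c13 12.4% and 38.4%, and at E18.5 35.7% and 62.8%. At E18.5 the next 100 kb inside averaged 54.0% over 16 edges. H3K27me3 in c13 averaged 0.120% in the first 100 kb inside and 14.6% outside, and at E18.5 50.9% inside and 52.8% outside.

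**Figure D3:**
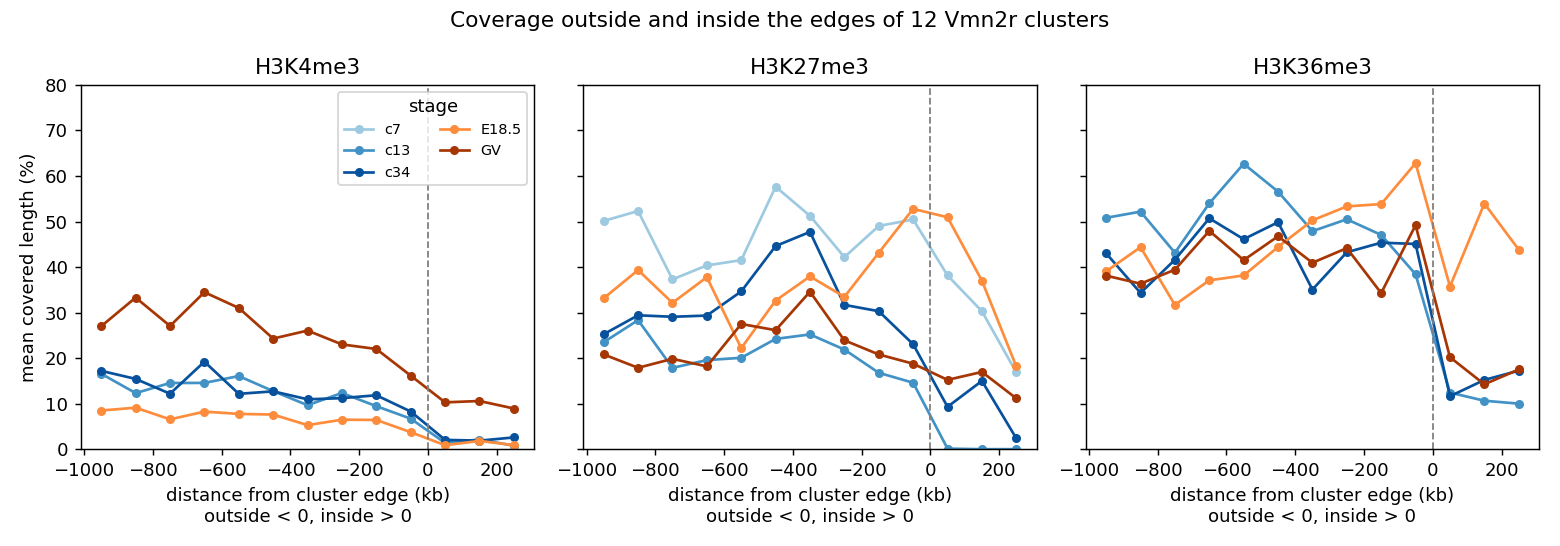
Mean covered length in percent by distance from the edges of the 12 Vmn2r clusters in kb, outside at negative and inside at positive distances, for H3K4me3, H3K27me3 and H3K36me3, with 1 line for each stage. In the 100 kb next to the edge H3K36me3 in c34 is 11.6% inside and 45.1% outside, while H3K27me3 at E18.5 is 50.9% inside and 52.8% outside. These means are over 18 edges inside and 23 outside, and so not over the same clusters.

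Long stretches of the family had no peak in any of the 13 lists. They made up 46.9% of the summed clusters, against 4.61% of the flanks and 9.47% of the autosomes. In 3 clusters at least 50% of the span had none, where 6.65% of tiles had none over that share: chr7a with 91.6%, chr17a with 53.0% and chr7d with 52.8%. Without chr7a the share was 34.3%. In chr5, chr7b, chr10b and chr14 every base lay under a peak of at least 1 list. The bodies of 45 of the 121 members had no peak in any list, where 3.82% of all protein-coding genes had none, and of the 45 21 were in chr7a, 10 in chr17a and 8 in chr7d.

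The chr7a cluster was also the one with the most repeated promoters. In its median member 84.9% of the 50-base words of the promoter occurred in another promoter of the table. The median was 53.0% in chr17b, 35.9% in chr10a and 31.9% in chr14, and their shares without a peak were 17.5%, 5.83% and 0%. In chr17a and chr7d the median was 0% and 0.797%, with 53.0% and 52.8% of the span without a peak. Of all Vmn2r promoters 20.7% had 50% or more of their words in another promoter, against 10.25% of all promoters. How reads with several matching places were treated is not given in the sources used here, and the part of shared sequence in the unmarked stretches was not tested.

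**Figure D4:**
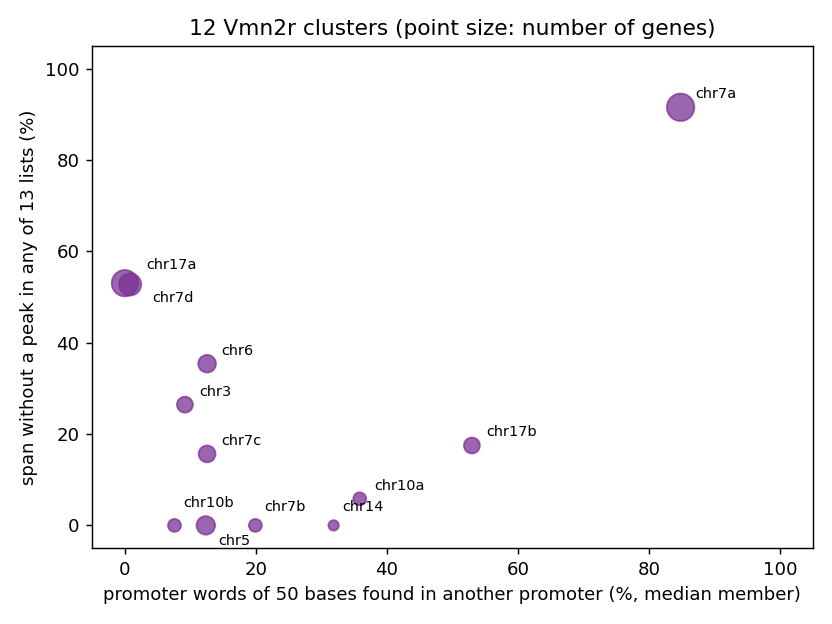
Each point is one of the 12 Vmn2r clusters, with the share of promoter words of 50 bases found in another promoter for the median member on the horizontal axis, the share of the span without a peak in any of 13 lists on the vertical axis, both in percent, and point size for the number of genes. The chr7a cluster stands apart at 84.9% and 91.6%, and chr17a and chr7d have near 0% shared words with 53.0% and 52.8%.

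Counted by gene, few members had H3K4me3 at their start. A start was called marked when a peak lay within 1 kb of it. In c13 4 of 121 members were marked, where 72.1% of all genes were, in c34 3 (66.4% of all genes), at E18.5 1 (61.7%) and in GV oocytes 11 (73.7%). The marked members lay in 2 clusters in c13, 3 in c34, 1 in E18.5 oocytes and 8 in GV oocytes. In all, 14 members were marked in at least 1 list, where 81.8% of all genes were.

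Vmn2r29 was the one member with H3K4me3 at a start in all 4 lists. Around its outer start, chr7:7278289, peaks covered 1712 bp of the window in c13, 1712 bp in c34, 2001 bp in E18.5 oocytes and 2001 bp in GV oocytes. Around its inner start, chr7:7247328, they covered 0 bp in all 4 lists. The outer start is the promoter rich in CpG printed first, and the inner one resembles that of Vmn2r30, which was not marked. Clcn4, a chloride transporter gene 4.02 kb from Vmn2r29, had H3K4me3 in all 4 lists, and its part in the Vmn2r29 value was not tested.

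Vmn2r56 and Vmn2r82 were marked in c34 and GV oocytes. Vmn2r129, Vmn2r18 and Vmn2r87 were marked in c13 alone. The other 8, marked in GV oocytes alone, were Vmn2r73, Vmn2r85, Vmn2r88, Vmn2r124, Vmn2r91, Vmn2r102, Vmn2r103 and Vmn2r112. The shares of all genes marked in such single lists alone are not given here. The body of Vmn2r112 was covered over 100% by H3K4me3 in GV oocytes, and that of Vmn2r111 over 75.0%. The median CpG count was 1 in the promoters of the 14 marked members and 1 in the others, and the median share of repeated words was 2.79% and 12.4%.

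H3K27me3 lay at the start of 20 of 121 members in c7, where 43.7% of all genes were marked, 1 in c13 (59.4% of all genes), 7 in c34 (41.2%), 32 in E18.5 oocytes (36.2%) and 11 in GV oocytes (26.1%). These members lay in 7, 0, 3, 10 and 4 clusters, and the one in c13 was the lone gene Vmn2r18. Vmn2r116, the ESP1 receptor, was covered over 100% of its body by H3K27me3 in c7 and at E18.5 and over 0% in c13, c34 and GV oocytes. Vmn2r26 had 59.1% in c7 and 0% at the other stages.

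H3K36me3 covered at least 20% of the body in 8 of 121 members in c13, where 70.2% of all genes passed that limit, 13 in c34 (64.9% of all genes), 39 in E18.5 oocytes (21.5%) and 17 in GV oocytes (63.4%). These members lay in 2, 6, 10 and 7 clusters. H3K36me3 at E18.5 was the only one of the 13 lists in which the share of members called exceeded that of all genes. This was not particular to the members, as 15 of the 43 other protein-coding genes inside the cluster spans (34.9%) also passed the limit at E18.5. The summed member bodies of the clusters were covered over 35.9% in that list, and the DNA between them over 33.6%. Members of 1 cluster often share 1 peak, so these gene counts are not counts of separate events. Vmn2r1, a family-C receptor, had 8.29% of its body under H3K36me3 in c13, 22.3% in c34, 22.3% in GV oocytes and 100% at E18.5.

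**Figure D5:**
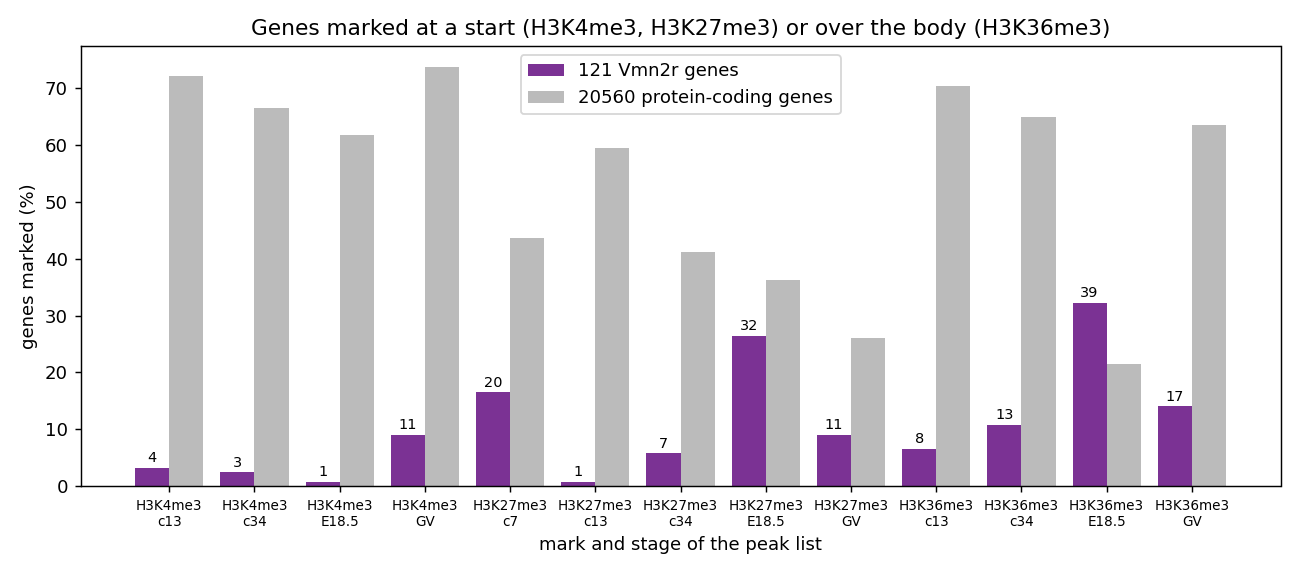
Percent of the 121 placed Vmn2r genes and of 20560 autosomal protein-coding genes marked in each of the 13 lists, at a start for H3K4me3 and H3K27me3 and over at least 20% of the body for H3K36me3. The numbers on the purple bars count Vmn2r genes, and the purple bar exceeds the grey one for H3K36me3 at E18.5, with 39 genes.

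The 5 lone genes differed among themselves. Vmn2r28 had no peak of any mark over its body in any list. Vmn2r120 was fully covered by H3K27me3 in c7, c34, E18.5 and GV and free of it in c13. Vmn2r118 was fully covered by H3K27me3 at E18.5 alone and had 76.3% under H3K36me3 in GV oocytes.

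Vmn2r129 and Vmn2r18 were the lone genes with H3K4me3, in the c13 list, over 52.4% and 15.5% of the body. Vmn2r129 was fully covered by H3K36me3 in c13, E18.5 and GV oocytes and by H3K27me3 at E18.5 and in GV oocytes. Vmn2r18 was fully covered by H3K27me3 in c13 and at E18.5 and by H3K36me3 in c13 and GV oocytes.

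The cluster spans also held 43 other protein-coding genes. H3K4me3 lay at a start of 12 in c13 (27.9%), 9 in c34 (20.9%), 10 in E18.5 oocytes (23.3%) and 11 in GV oocytes (25.6%), where 72.1%, 66.4%, 61.7% and 73.7% of all genes were marked. Those with the mark in all 4 lists were Clcn4, AW146154 and the zinc finger genes Zfp788, Zfp141, Zfp977, Zfp945 and Zfp40. All 7 zinc finger genes inside the clusters passed the limit for H3K36me3 at E18.5, as did 1 in c34, 4 in GV oocytes and 5 in c13, where 21.5% of all genes did at E18.5, 64.9% in c34, 63.4% in GV oocytes and 70.2% in c13. The 15 olfactory receptor genes inside chr7d and the 6 formyl peptide receptor genes inside chr17a, a receptor family also found in vomeronasal neurons, had no H3K4me3 at a start in any list. None of the 43 had H3K27me3 at a start in c13, where 59.4% of all genes had it, against 13 in c7, where 43.7% of all genes had it, and 12 at E18.5, where 36.2% did.

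Clusters of like families were built by the same rule. Of 10 clusters of Vmn1r genes, the type 1 vomeronasal receptors, 7 had 50% or more of their span under H3K36me3 at E18.5 and 5 under H3K27me3, beside 7 and 4 of the 12 Vmn2r clusters. In c13 the highest H3K27me3 coverage of a Vmn1r cluster was 0%, and that of a Vmn2r cluster 0.627%. Of 39 clusters of Olfr genes, the olfactory receptors, 14 reached 50% under H3K27me3 in c13, 24 at E18.5, and 7 under H3K36me3 at E18.5. The median share of a cluster without a peak in any list was 16.6% for Vmn2r, 7.66% for Vmn1r and 0% for Olfr. Promoters with 50% or more of their words in another promoter were 20.7% for Vmn2r, 34.6% for Vmn1r and 1.60% for Olfr. No difference between the families was tested.

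The partners of these receptors in vomeronasal neurons were read in the same lists. Of 36 listed pathway genes, H3K4me3 marked 24 in c13 (66.7%), 21 in c34 (58.3%), 16 in E18.5 oocytes (44.4%) and 26 in GV oocytes (72.2%), below the 72.1%, 66.4%, 61.7% and 73.7% of all genes. H3K27me3 marked 29 in c7 (80.6%), 29 in c13 (80.6%), 24 in c34 (66.7%), 25 in E18.5 oocytes (69.4%) and 18 in GV oocytes (50%), above the 43.7%, 59.4%, 41.2%, 36.2% and 26.1% of all genes. H3K36me3 over the body passed the limit in 24 in c13 (66.7%), 15 in c34 (41.7%), 2 in E18.5 oocytes (5.56%) and 17 in GV oocytes (47.2%), below the 70.2%, 64.9%, 21.5% and 63.4% of all genes. No test of these differences was made. Gnao1, the G protein alpha subunit of V2R neurons, had H3K4me3 and H3K27me3 at its start in every list of those marks. Trpc2, the cation channel that carries the vomeronasal response, had H3K4me3 and H3K27me3 in c13 alone.

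H3K4me3 marked 2 pathway genes in c34 and not in GV oocytes, Kirrel2 and Gng13, and 7 in GV oocytes and not in c34. Those 7 were the chloride channel gene Ano1, the receptor transporters Rtp1 and Rtp2, and H2-M10.1, H2-M10.3, H2-M10.5 and H2-M10.6, class Ib histocompatibility genes that accompany V2Rs. Between c13 and E18.5, 8 were marked in c13 alone: Trpc2, Gng8, Calr4, Ano1, Ano2, Kirrel2, Kirrel3 and Robo2. The GV and c13 lists also marked more of all genes, 73.7% against 66.4% in c34 and 72.1% against 61.7% at E18.5. The shares of all genes marked in 1 of 2 compared lists are not given here. H3K27me3 marked 8 pathway genes in c34 and not GV, 2 in GV and not c34, 9 in c13 and not E18.5, and 5 in E18.5 and not c13. For H3K36me3 these counts were 1, 3, 24 and 2. The 9 H2-M genes of the list had H3K27me3 at the start in 9 cases in c7, 5 in c13, 4 in c34, 9 in E18.5 oocytes and 2 in GV oocytes. Of all genes 43.7%, 59.4%, 41.2%, 36.2% and 26.1% had it in these lists.

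As a check of the cell types, H3K4me3 lay at the start of 9 of 9 autosomal germ cell and oocyte markers in c13, c34 and GV oocytes and of 8 at E18.5, where 72.1%, 66.4%, 73.7% and 61.7% of all genes were marked. Markers of ovarian somatic cells had H3K4me3 in 7 of 8 in c13, 5 in c34, 2 in E18.5 oocytes and 7 in GV oocytes, so in c13 and GV oocytes nearly as many of these were marked as of the germ cell list, and their part in the results was not tested. Of 4 markers of vomeronasal sensory neurons, H3K4me3 marked 3 in c13, 2 in c34, 1 in E18.5 oocytes and 2 in GV oocytes. Omp, the olfactory marker protein gene, had it in none of the 4 lists. The 8 somatic markers had H3K27me3 at the start in 7 cases for each cultured stage, 8 for E18.5 oocytes and 5 for GV oocytes. Germ cell markers carried it at 4 of 9 starts for c7 and E18.5, 7 for c13, and 1 each for c34 and GV oocytes. Among all genes, 43.7% (c7), 59.4% (c13), 41.2% (c34), 36.2% (E18.5) and 26.1% (GV) carried it. The somatic marker without H3K4me3 in c13, Fshr, also lacked H3K27me3 there.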

How the data were processed

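The unit is other than counts in all 13 peak lists: the authors deposited the chromosome, start and end of each peak in base pairs and no score, per the file headers. H3K4me3 positions were multiples of 1 kb and those of H3K27me3 and H3K36me3 multiples of 10 kb. The submitters' processing notes name MACS2 2.1.1, SICER 0.0.41, bedtools 2.29.2, Bowtie2 2.3.4.1, Picard 2.18.23, deepTools 3.5.0, SAMtools 1.7, Trim Galore 0.4.1 and cutadapt 1.9.1, with mm10 and GRCm38.p3 as builds. The caller of each list, its threshold, how input entered, whether libraries were pooled and how reads with several places were treated is not given in the sources used here. Depth is unknown, and depth or threshold may set how much a list covers. Input libraries and peaks on X and Y were not used here.

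Gene positions came from the RefSeq table of GRCm38.p6, and starts and strands from its promoter table. Members without a promoter entry, 6 genes, were read at both annotated ends. Coverage is the percent of a span under peaks, with tiles of 500 kb as background from 3 Mb on. A cluster was called covered from 50%, a difference called from 20 percentage points, a start marked by a peak within 1 kb, and a body marked from 20%. No test was made, because each stage and mark had 1 list. Alternatives changed the joining distance, cluster size, span, peaks, clusters used, limits, tile and flank size.

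Members and gene lists were chosen with earlier results of these data known, and the rule for members used symbols and positions only. Named were lone members, the first and last of each cluster, members with H3K4me3 at a start, those with the largest H3K27me3 range, members with known ligands, genes inside clusters with H3K4me3 in all 4 lists, and pathway genes marked at 1 of 2 compared stages. Vmn2r115, other fully covered genes and genes outside that rule were named after their values were seen. The arithmetic was tested on simulated data. Work was done in Python 3.11.15 with matplotlib 3.10.9, scipy 1.17.1, pandas 2.3.3 and numpy 2.4.6.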

Additional observations from a re-analysis of the deposited data

How the results depend on the processing

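No paired analysis was possible because each stage and mark had 1 list, with no lists of single replicates, so leaving out a replicate or a replicate block was not run. Unknown depth and calling thresholds limit every comparison between lists. The percent of clusters covered over at least 50% was equal in 104 of 156 alternatives, with a largest change of 33.3 percentage points. It stayed within its 95% binomial interval in 152, but with 12 clusters that interval is wide. It ran from 27.7% to 84.8% for H3K36me3 at E18.5 and from 0% to 26.5% where no cluster was covered, so staying inside says little. Outside the interval, the percent was 0% for H3K36me3 in c13 with peaks of at least the median width, 0% for H3K36me3 in c34 and in GV oocytes without chromosome 7, and 25% for H3K36me3 at E18.5 when covered meant 80% of the span. With flanks of 0.5 or 2 Mb, 10 of the 26 counts of clusters below their flanks were equal to those with 1 Mb, and the others differed by 1 or 2 clusters.

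The number of clusters higher minus lower by 20 points was equal in 85 of 143 alternatives, was equal or within 1.5 times in 120, and reversed in 1, for which the cause was not tested. That was H3K36me3 in c34 minus c13, at -1, which was 1 with gene bodies only. The same difference was 0 when members up to 0.5 Mb or up to 2 Mb apart were joined, 0 with peaks of at least the median width, -2 without chromosome 7, 0 without clusters of shared promoter words, an alternative chosen after seeing the data, and 0 at 40 points. H3K27me3 in c34 minus GV, at -1, was -2 when joined at 0.5 Mb, -2 with peaks of at least the median width and 0 at 40 points. H3K4me3 in c34 minus GV, at 0, was -1 with spans widened by 50 kb and -1 with gene bodies only, and H3K27me3 in c34 minus c13, at 0, was 1 with widened spans.

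H3K4me3 in c13 minus E18.5, at 1, was 0 with gene bodies only and 0 at 40 points. H3K4me3 in c34 minus c13, at -1, was 0 under the same settings. H3K4me3 in GV minus E18.5, at 2, was 0 with peaks of at least the median width, 1 without clusters of shared promoter words and 0 at 40 points. At 40 points H3K36me3 in c13 minus E18.5 was -5 in place of -9, H3K27me3 in GV minus E18.5 was -5 in place of -3, and H3K27me3 in c13 minus c7 was -3 in place of -6.

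Of the gene counts, H3K4me3 marked 23 members in GV oocytes, 8 in c34 and 2 at E18.5, and H3K27me3 2 in c13, when both annotated ends were used, an alternative chosen after seeing the data. H3K4me3 in c34 marked 6 members with a window of 5 kb and 1, Vmn2r29, when 50% of the window of 1 kb had to be covered.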
